A study of Mus musculus with 6 samples.

Results

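Mitochondrial ribosomal protein genes were examined in bulk liver RNA of mice that lack SHMT2, the mitochondrial serine hydroxymethyltransferase, in hepatocytes. The members are the annotated genes whose symbol begins with Mrpl or Mrps followed by a digit, with pseudogenes left out and at least 10 counts in at least 3 of the 6 samples. Of 49671 gene entries, 83 had such a symbol, 5 of these were processed pseudogenes, and the other 78 all passed the count minimum and are protein coding. Livers came from 3 SHMT2 fl/fl mice (labelled WT), with floxed alleles and no Cre, and 3 SHMT2 HKO mice (labelled KO). The SHMT2 HKO mice carried the same alleles and Cre under the Albumin promoter, made to delete the gene in hepatocytes. From protein blots, the paper proposes that liver cells other than hepatocytes keep SHMT2. All mice were males of the C57BL/6J background. From an age of 4 weeks to 22 weeks, that is for 18 weeks, they had eaten the AMLN diet, a feed with much fat, cholesterol and fructose used to bring about fatty liver. Livers from other diets were not analysed here, so the genotypes are compared on this diet alone.

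Mitochondrial ribosomes translate the few messenger RNAs of the mitochondrial genome, which encode core subunits of the respiratory chain and of ATP synthase. Their ribosomal RNAs come from the mitochondrial genome, whereas every one of their proteins is encoded in the nucleus, made in the cytosol and imported. The large subunit joins amino acids and holds the exit tunnel for the new protein, and the small subunit binds the messenger RNA and reads its codons. Some of these proteins have homologs in bacterial ribosomes and others occur only in mitochondria. SHMT2 feeds the mitochondrial folate pool, which supplies one-carbon units for the modification of certain mitochondrial tRNAs.

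By the structure of the mammalian particle, 51 members belong to the large subunit and 26 to the small subunit. Mrps30 and Mrps18a sit in the large subunit despite the letter in their symbols. Mrps36 was kept by the symbol rule but counted in neither subunit, since its product is a part of the 2-oxoglutarate dehydrogenase complex. Bacterial homologs make up 29 large and 16 small subunit members, and mitochondria-specific proteins 22 and 10. Of the paralogs Mrps18a, Mrps18b and Mrps18c, only Mrps18c was counted as a bacterial homolog, and Mrps18a and Mrps18b as mitochondria-specific. The genes lie on 17 chromosomes, with 11 of them on chromosome 11.

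Many nuclear genes for mitochondrial proteins carry binding motifs of NRF1, of ETS factors such as GABP, or of YY1 near their start. Windows from 250 bases before to 50 bases after the start were found in RefSeq (GRCm38.p6) for 69 of the 78 members and searched on both strands. The ETS core CCGGAAG was in 25 of the 69 member windows (36.2%), against 9.12% of all 27025 windows and 16.7% of the 11685 windows of tested genes. The NRF1 motif with an open centre, which is GCGC, any 2 bases and GCGC again, was in 14 (20.3%), against 6.43% of all windows and 12.5% of those of tested genes. Its full form, with AT as the 2 bases and so one case of the open form, was in 3 (4.35%, against 0.977% and 1.88%). The YY1 motif AAGATGGCG was in 8 (11.6%, against 1.49% and 2.86%). An E-box, CACGTG, was in 5 (7.25%), a share close to the 7.24% of all windows and below the 9.75% of those of tested genes. A letter match is a description of the window and does not show that a factor binds there.

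The 100 bases before the RefSeq start of 4 members are shown 5′ to 3′ (GRCm38), with the ETS core or the open NRF1 motif in capitals, because they set a gene that rose in SHMT2 HKO livers (Mrpl34) beside 3 that hold a motif and did not pass the test.
Mrpl34 (chr8:71464826-71464925, plus strand): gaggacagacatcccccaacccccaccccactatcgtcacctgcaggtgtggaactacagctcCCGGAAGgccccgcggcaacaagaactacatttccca
Mrps22 (chr9:98601680-98601779, minus strand): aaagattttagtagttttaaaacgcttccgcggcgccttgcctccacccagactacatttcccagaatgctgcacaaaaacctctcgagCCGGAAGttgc
Mrpl58 (chr11:115403652-115403751, plus strand): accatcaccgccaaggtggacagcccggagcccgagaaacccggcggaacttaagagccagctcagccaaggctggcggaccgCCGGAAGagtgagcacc
Mrpl45 (chr11:97315616-97315715, plus strand): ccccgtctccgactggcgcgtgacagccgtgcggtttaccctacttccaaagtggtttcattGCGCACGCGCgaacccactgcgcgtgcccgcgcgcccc

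Counted from the start, the ETS core began at base -37 in Mrpl34, at -11 in Mrps22 and at -17 in Mrpl58. Mrpl58 held another ETS core that began at -2 and ran past the bases shown. Mrpl45 held the open NRF1 motif at -38 and, outside the bases shown, also at -120 and at 15. The ETS core was in 15 of 45 large subunit windows (33.3%) and in 10 of 23 small subunit windows (43.5%). It was in 3 of the 11 windows of members that rose in the test described next. Members with the core had a median log2 fold change of 0.41 and those without it 0.34, and for the YY1 motif the medians were 0.41 and 0.35. For the open NRF1 motif they were 0.33 with and 0.36 without it, for its full form 0.32 and 0.36, and for the E-box 0.32 and 0.36.

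Since whole liver was sequenced, fewer cells of a type and less RNA per cell cannot be told apart. Counts on genes summed to between 23090837 and 34089722 per sample, and members had from 33 to 4363 counts in a library. Shmt2, the deleted gene, was at 94.6, 109 and 93.9 CPM (the count scaled to the TMM-corrected library size) in SHMT2 fl/fl livers and at 24.9, 28.3 and 19.3 CPM in SHMT2 HKO livers (log2 fold change -2.04, SE 0.16, adjusted p = 0.000639). SHMT2 HKO mouse 3 had the lowest Shmt2 level of the 6 mice, yet it stood apart from the other SHMT2 HKO mice for the members, as given below. The TMM factor, which corrects a library size for its composition, was 1.13 to 1.21 in SHMT2 fl/fl libraries, 0.812 and 0.802 in SHMT2 HKO mice 1 and 2, and 0.984 in mouse 3. Members took 0.296, 0.306 and 0.305% of all gene counts in SHMT2 fl/fl livers and 0.298, 0.296 and 0.267% in SHMT2 HKO livers, so that the differences below arise on the TMM scale and not in the raw share.

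Members as a list were slightly higher in SHMT2 HKO livers on the TMM scale, by amounts that were small for most single genes. Of the 78 members, 12 (15.4%) rose in SHMT2 HKO livers at an adjusted p under 0.05 (edgeR quasi-likelihood test, Benjamini-Hochberg over 16089 genes) and 0 fell, where 12.5% of all genes tested rose and 16.5% fell. In this test at this threshold, the share of members that rose is thus near the background, and the counts vary with test and threshold. DESeq2 called 24 of the 78 members higher (against 15.8% of all genes) and limma-voom 11 of the 78 (against 12.4%), and both called 0 lower. At an unadjusted p under 0.05, 33 of the 78 members were higher and 0 were lower, where 19.5% of all genes were higher and 21.8% lower. The log2 fold change was above 0 for 76 members (51.9% of all genes), with a median of 0.35, an interquartile range from 0.26 to 0.46 and a range from -0.10 to 0.64. Over all genes tested the median was 0.03 and the interquartile range ran from -0.49 to 0.35, so the member median lies at the 74.9th percentile of all genes. A median of 0.35 is a 1.27-fold difference. The SE of a single member ranged from 0.10 to 0.29 with a median of 0.15.

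**Figure D1:**
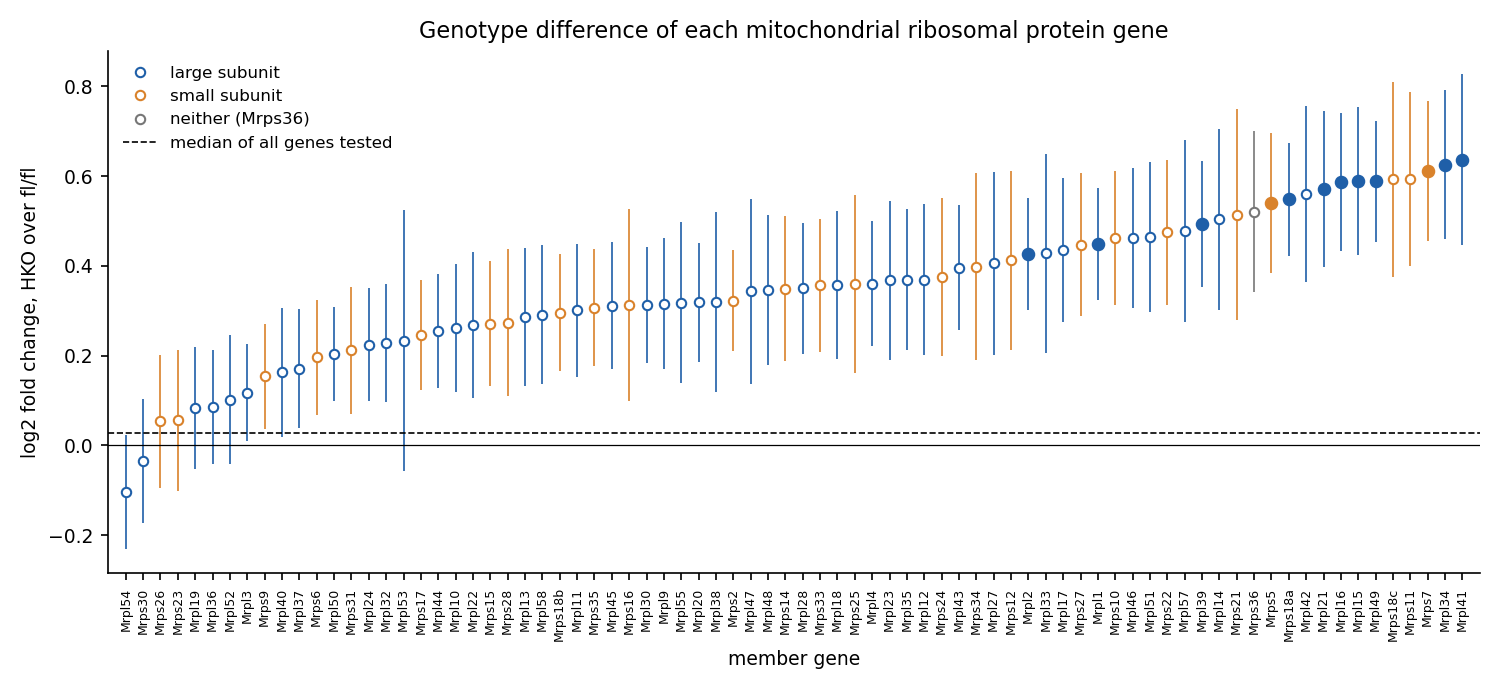
Log2 fold change of each of the 78 members, SHMT2 HKO over SHMT2 fl/fl (vertical axis), in ascending order, with bars for the SE of the fit. Filled points are the 12 members that passed the test, open points the other 66, and the dashed line is the median of all genes tested (0.03). Large subunit, small subunit and Mrps36 points are coloured apart, with large subunit members from -0.10 to 0.64 and small subunit members from 0.05 to 0.61.

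These calls depend on how the libraries are scaled, and the bulk of genes moves with the scaling. Scaled by library size alone, the median of all genes was -0.40 and that of the members -0.09. Scaled to the ERCC spike-in RNAs, which took 1.42 to 1.84% of counts in SHMT2 fl/fl and 1.35 to 2.75% in SHMT2 HKO libraries, the medians were -0.69 and -0.45. The direction of the members therefore flips under both, to 23 and 0 members above 0. With library size alone 0 members rose (3.35% of all genes) and 2 fell (30.6%), and at an unadjusted p under 0.05 there were 0 higher and 7 lower (5.02% and 41.2% of all genes). With ERCC scaling 0 rose (0.665%), and at an unadjusted p under 0.05 there were 0 higher and 0 lower (1.03% and 27.4%). Upper-quartile scaling gave 5 that rose (9.08%), and a correction for GC content and length 35 (25.5%). Relative to the median of all genes, 76 members stood above it under TMM, 76 under library size alone and 74 under the spike-ins. Under each of these scalings and the correction, the member median lay above that of all genes, by 0.24 to 0.32 log2 units.

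**Figure D2:**
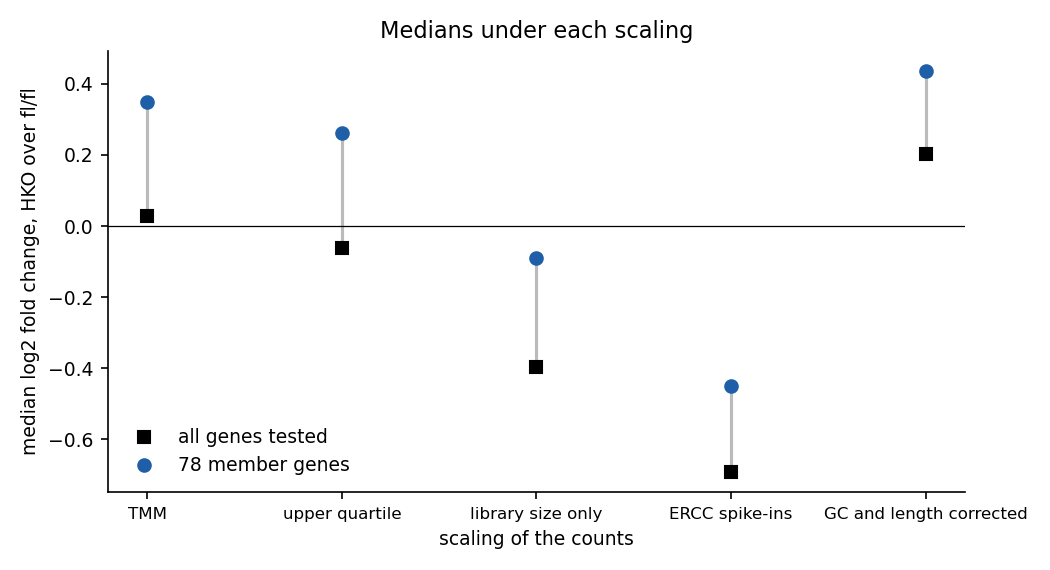
Median log2 fold change, SHMT2 HKO over SHMT2 fl/fl (vertical axis), of all genes tested (squares) and of the 78 members (circles) under 5 ways to scale or correct the counts. Under each the members lie above all genes, and both medians are below 0 with library size alone and with ERCC scaling.

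Mice of the same genotype differed for these genes. Summed over the members, the level was 2457, 2660 and 2714 CPM in SHMT2 fl/fl mice 1 to 3, and 3675, 3696 and 2719 CPM in SHMT2 HKO mice 1 to 3. SHMT2 HKO mouse 3 thus sat at the highest control, while the other SHMT2 HKO mice were well above all controls. Relative to the SHMT2 fl/fl mean, the median member differed by 0.50, 0.46 and 0.07 log2 units in SHMT2 HKO mice 1, 2 and 3, and by -0.07, 0.03 and 0.06 in the controls. Mouse 3 was the lowest of the SHMT2 HKO mice for 74 of the 78 members and the highest for 0. Mice 1 and 2 both exceeded every control for 72 members, mouse 3 did so for 32, and mouse 3 was below every control for 9. The shares over all genes were not computed for these counts by mouse, so they describe the members only.

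**Figure D3:**
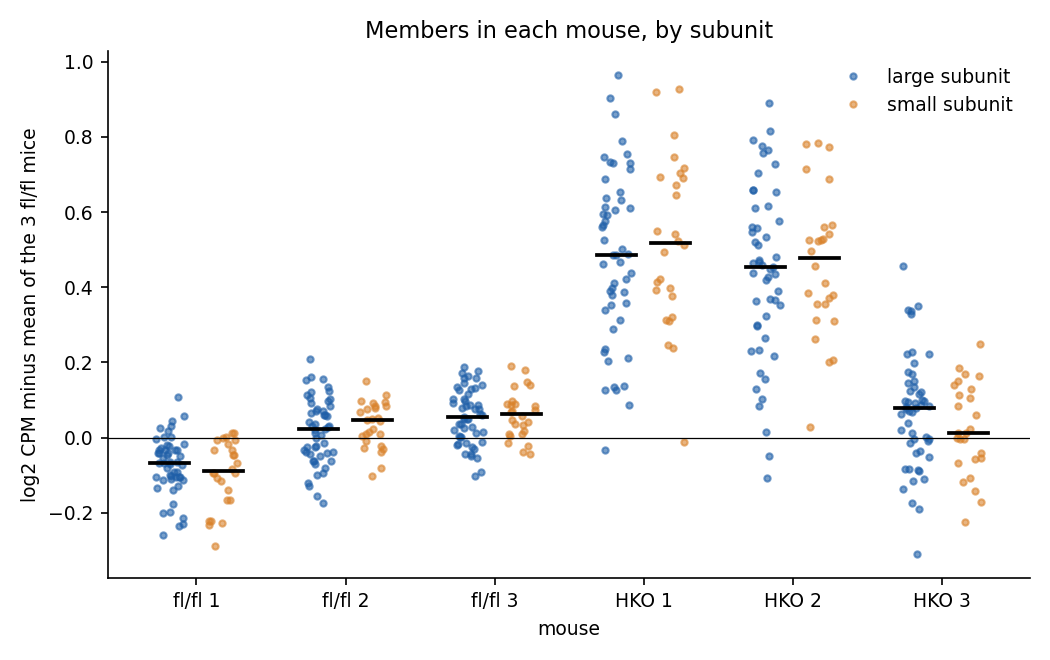
Each member's log2 CPM minus its mean over the 3 SHMT2 fl/fl mice (vertical axis), by mouse, for large subunit (blue) and small subunit (orange) members, with black lines at the medians. SHMT2 HKO mice 1 and 2 have member medians of 0.50 and 0.46, and mouse 3 lies at 0.07, beside the controls.

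No overlap between genotypes, with all SHMT2 HKO mice above all controls, was seen for 32 members (41.0%), against 21.9% of all genes tested. In the other direction it was seen for 0 members, against 25.0%. Without SHMT2 HKO mouse 3, 54 members rose (15.0% of all genes), 34 of them in the large and 19 in the small subunit, and the median was 0.47. Without SHMT2 HKO mouse 1 or 2 the count was 6 (12.0%) and 2 (6.72%). Leaving out SHMT2 fl/fl mouse 1, 2 or 3 gave 0 (5.76%), 1 (5.20%) and 0 (4.93%), where 14, 19 and 20 members were higher at an unadjusted p under 0.05 (14.9, 14.7 and 14.7% of all genes) and 0 were lower.

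The subunits did not separate. The median log2 fold change was 0.35 for the large and 0.35 for the small subunit, a difference of -0.0066. In the large subunit 10 of 51 members rose (19.6%) and in the small subunit 2 of 26 (7.69%), against 12.5% of all genes, with 0 lower in either, against 16.5%. At an unadjusted p under 0.05, 22 and 10 were higher, against 19.5% of all genes. Whether these shares differ between the subunits was not tested. The summed level of the large subunit was 1737, 1875 and 1914 CPM in SHMT2 fl/fl and 2566, 2600 and 1935 CPM in SHMT2 HKO livers. For the small subunit it was 712, 776 and 792 CPM against 1096, 1082 and 774 CPM. SHMT2 HKO mouse 3 was just above the highest control for the large subunit sum and within the control range for the small subunit sum. The ratio of the large to the small sum was 2.44, 2.41 and 2.42 in controls (2.42 ± 0.0145, SD, n = 3) and 2.34, 2.40 and 2.501 in SHMT2 HKO livers (2.41 ± 0.0804, SD, n = 3). The means of this ratio differ by less than the SD of either group.

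Origin made little difference either. Bacterial homologs had a median of 0.36 in the large and 0.36 in the small subunit, and mitochondria-specific members had 0.32 and 0.33. Of these 29 and 16 bacterial homologs 6 and 2 rose, and of the 22 and 10 mitochondria-specific members 4 and 0, against the same 12.5% of all genes. Among these last 10, 4 were higher at an unadjusted p under 0.05 (19.5% of all genes). DESeq2 called 2 higher (15.8% of all genes) and limma-voom 0 (12.4%).

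In the large subunit the largest increase was that of Mrpl41 (chr2:24974117-24975098), which encodes a mitochondria-specific protein. It was at 19.4, 19.5 and 22.3 CPM in SHMT2 fl/fl and 39.8, 32.1 and 23.4 CPM in SHMT2 HKO livers (log2 fold change 0.64, SE 0.19, adjusted p = 0.0376). Mrpl34 (chr8:71464959-71465747), a homolog of a small bacterial protein, was at 23.5, 29.5 and 30.2 against 50.1, 43.5 and 34.8 CPM (log2 fold change 0.63, SE 0.17, adjusted p = 0.0246). In both genes SHMT2 HKO mouse 3 was the closest of its group to the controls. Mrpl49, mitochondria-specific, rose from 25.3, 28.2 and 26.3 to 40.6, 45.5 and 33.9 CPM (log2 fold change 0.59, SE 0.13, adjusted p = 0.0146), and its groups did not overlap.

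Mrpl15 and Mrpl16, homologs of bacterial large subunit proteins, completed the leading 5 of this subunit. Mrpl15 was at 41.7, 50.2 and 43.7 CPM in controls and 74.7, 76.5 and 52.5 CPM in SHMT2 HKO livers (log2 fold change 0.59, SE 0.16, adjusted p = 0.0298). Mrpl16 was at 34.5, 37.8 and 36.2 against 46.3, 67.1 and 49.7 CPM (log2 fold change 0.59, SE 0.15, adjusted p = 0.024). Mrpl16 is one of the 4 members for which mouse 3 was not the lowest SHMT2 HKO mouse. Mrps18a, whose product belongs to the large subunit, had the smallest adjusted p of all members. Its level was 39.4, 40.8 and 39.6 CPM in controls and 65.5, 59.6 and 50.1 CPM in SHMT2 HKO livers (log2 fold change 0.55, SE 0.13, adjusted p = 0.0145). The other 4 large subunit members that rose, named after their values were seen, were Mrpl21 (log2 fold change 0.57), Mrpl39 (0.49), Mrpl1 (0.45) and Mrpl2 (0.43), with adjusted p from 0.0286 to 0.0395.

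In the small subunit, Mrps7 and Mrps5 rose. Mrps7 (chr11:115603925-115608036) encodes the homolog of a bacterial protein in the head of the subunit, and its human counterpart is a gene of mitochondrial disease. It was at 63.5, 64.6 and 66.9 CPM in SHMT2 fl/fl and 109, 112 and 77.2 CPM in SHMT2 HKO livers (log2 fold change 0.61, SE 0.16, adjusted p = 0.0215). Mrps5 (chr2:127587222-127606829), which lies near the entry of the messenger RNA, was at 36.6, 39.6 and 36.4 against 61.1, 60.4 and 42.2 CPM (log2 fold change 0.54, SE 0.16, adjusted p = 0.0339). The groups did not overlap for either gene, and mouse 3 was again the lowest of the SHMT2 HKO mice.

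**Figure D4:**
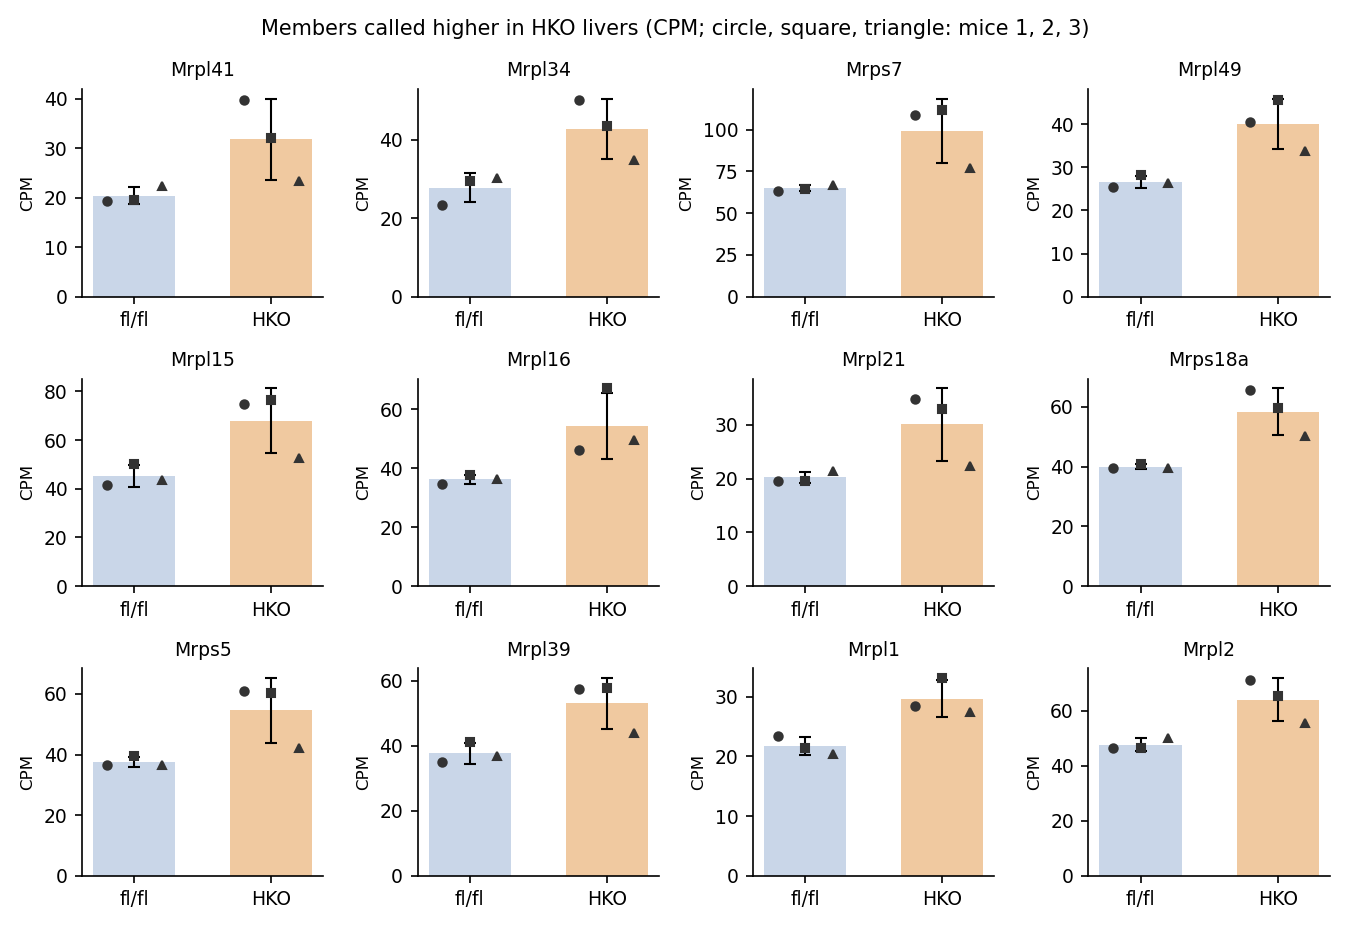
CPM in each mouse for the 12 members that rose, with bars at the group means and error bars of 1 SD (n = 3 mice per group). In all 12 the SHMT2 HKO points lie above the SHMT2 fl/fl points, and the triangle of SHMT2 HKO mouse 3 is the lowest in each gene but Mrpl16.

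Members of the stalk and of the factor-binding region, which bring translation factors to the ribosome, did not pass the test. Mrpl12, the stalk protein, which also binds the mitochondrial RNA polymerase, was at 80.1, 104 and 106 CPM in controls and 133, 140 and 102 CPM in SHMT2 HKO livers (log2 fold change 0.37, SE 0.17, adjusted p = 0.135). Mrpl10, which anchors the stalk, was at 57.3, 58.2 and 56.2 against 63.0, 82.9 and 60.0 CPM (log2 fold change 0.26, SE 0.14, adjusted p = 0.203). Mrpl11, at the base of the stalk, was at 24.3, 28.3 and 27.3 against 35.6, 36.3 and 26.6 CPM (log2 fold change 0.30, SE 0.15, adjusted p = 0.163). Only for Mrpl10 did the groups not overlap among these 3 genes.

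Mrpl3, a core protein close to the site of peptide bond formation, differed little, at 21.9, 23.9 and 22.9 CPM in controls and 24.3, 25.8 and 24.4 CPM in SHMT2 HKO livers (log2 fold change 0.12, SE 0.11, adjusted p = 0.452). Its 95% interval, -0.13 to 0.37, takes in the member median of 0.35. Mrpl44, related to double-stranded RNA-binding proteins, was at 19.7, 17.9 and 20.9 against 25.3, 23.3 and 21.1 CPM (log2 fold change 0.25, SE 0.13, adjusted p = 0.166). Mrpl45, which ties the ribosome to the inner membrane at the tunnel exit, was at 26.3, 33.3 and 30.1 against 41.0, 38.3 and 31.9 CPM (log2 fold change 0.31, SE 0.14, adjusted p = 0.135). Mrpl58, a peptidyl-tRNA hydrolase built into the large subunit that frees stalled chains, was at 33.1, 35.5 and 41.2 against 52.5, 44.9 and 37.0 CPM (log2 fold change 0.29, SE 0.15, adjusted p = 0.195).

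Among small subunit members with known roles, Mrps12 belongs to the decoding centre. Its level was 30.5, 37.9 and 39.4 CPM in controls and 57.7, 51.4 and 34.4 CPM in SHMT2 HKO livers (log2 fold change 0.41, SE 0.20, adjusted p = 0.156), so the groups overlapped through mouse 3. Mrps2, Mrps16, Mrps22 and Mrps34 are, like Mrps7, known in humans as genes of combined oxidative phosphorylation deficiency. Mrps22 was at 17.1, 16.7 and 17.1 against 27.4, 25.1 and 18.3 CPM (log2 fold change 0.47, SE 0.16, adjusted p = 0.0588). Mrps2 was at 36.3, 35.7 and 37.3 against 45.2, 50.0 and 41.4 CPM (log2 fold change 0.32, SE 0.11, adjusted p = 0.0622). For both the groups did not overlap, although neither passed the test. Mrps34 was at 60.6, 69.8 and 65.8 against 85.7, 112 and 60.7 CPM (log2 fold change 0.40, SE 0.21, adjusted p = 0.186). Mrps16 was at 15.8, 20.6 and 21.9 against 27.6, 27.7 and 17.1 CPM (log2 fold change 0.31, SE 0.21, adjusted p = 0.308), and in both genes mouse 3 lay within the control range.

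Mrps18a, Mrps18b and Mrps18c are paralogs that derive from a single bacterial gene. The split by origin above nevertheless counts Mrps18a and Mrps18b as mitochondria-specific, so its classes are not exact for these genes. Mrps18c was at 18.7, 20.5 and 20.4 CPM in controls and 37.6, 32.6 and 19.8 CPM in SHMT2 HKO livers (log2 fold change 0.59, SE 0.22, adjusted p = 0.0728). Mrps18b was at 30.0, 28.1 and 31.2 against 39.9, 38.8 and 31.0 CPM (log2 fold change 0.30, SE 0.13, adjusted p = 0.124). Mrps18c had a fold change of about the size of that of Mrps18a but a wider spread, with mouse 3 among the controls, and it did not pass the test. Whether the 3 paralogs differ from each other was not tested. Mrps36, of the dehydrogenase complex, was at 7.80, 9.41 and 8.35 against 12.8, 14.1 and 9.76 CPM (log2 fold change 0.52, SE 0.18, adjusted p = 0.0606).

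The members nearest to no difference were Mrps30, Mrps26 and Mrps23. Mrps30 was at 15.1, 16.0 and 17.8 CPM in controls and 17.7, 15.7 and 14.2 CPM in SHMT2 HKO livers (log2 fold change -0.03, 95% interval -0.35 to 0.28). Mrps26 had a log2 fold change of 0.05 (-0.29 to 0.39) and Mrps23 of 0.06 (-0.30 to 0.42). In each the groups overlapped. For Mrps26 and Mrps23 the interval holds the member median of 0.35, and for Mrps30 it ends below that value. Mrpl54, singled out after its value was seen, had the lowest log2 fold change, -0.10 (-0.39 to 0.19), from 24.3, 24.2 and 26.2 CPM in controls and 24.3, 25.1 and 20.1 CPM in SHMT2 HKO livers.

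Levels per length differed far more between members than between genotypes. RPKM, the count scaled for library size and for annotated exon length, ran from 1.94 to 63.1 over the members in SHMT2 fl/fl livers, with a median of 12.0. In controls the highest by RPKM was Mrpl12 (63.1 ± 9.40 in controls, 81.5 ± 13.3 in SHMT2 HKO livers, SD, n = 3), followed by Mrpl14 (62.4 ± 6.02 and 88.5 ± 24.2), and these neighbours do not differ beyond their SD and stood in the reverse order in SHMT2 HKO livers. The lowest in controls was Mrps25 (1.94 ± 0.162 and 2.49 ± 0.655), and in SHMT2 HKO livers Mrps30 lay below it (2.44 ± 0.204 and 2.38 ± 0.263). Exon lengths, 607 to 8631 bases, cover all annotated isoforms, so the RPKM of a gene with rarely used long exons is understated. The order of the members by mean RPKM was nearly the same in both genotypes (Spearman's rho 0.991 across 78 genes, which share libraries and are not independent).

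Exons of 33 members overlap exons of another gene, from which reads could have been counted or lost. Mrpl46 and Mrps11 lie on opposite strands and share 173 exonic bases, and the sources used here do not state whether counting used the strand. The largest shares of a member's exons under another gene were 88.0% for Mrpl53, which lies under Gm42688 and had the lowest CPM of the members, 69.8% for Mrps25 under Nr2c2 and 63.4% for Mrps34 under Mapk8ip3. Of the 12 members that rose, Mrps7, Mrpl21 and Mrpl49 overlap another gene, with at most 6.13% of their exons under any one of these. The values of these genes are uncertain to that extent.

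Other genes of mitochondrial translation were placed beside the members. Over all genes tested 12.5% rose and 16.5% fell, and the counts in these lists stand beside those shares. Among 5 mitochondrial ribosome proteins with other symbols, Ptcd3 (log2 fold change 0.41, adjusted p = 0.0209) and Chchd1 (0.48, adjusted p = 0.0458) rose, and Aurkaip1, Gadd45gip1 and Dap3 had 0.52, 0.49 and 0.22. Of 15 translation factors, 8 rose (53.3%) and 0 fell (median 0.44), led by the elongation factor Gfm1. Gfm1 was at 61.2, 67.4 and 66.2 CPM in controls and 101, 128 and 107 CPM in SHMT2 HKO livers (log2 fold change 0.79, SE 0.13, adjusted p = 0.00409), and here mouse 3 lay with the other SHMT2 HKO mice. The initiation factor Mtif3 and the RNA-binding protein Lrpprc had log2 fold changes of 0.58 and 0.58. Of 26 assembly factors 0 rose or fell (median 0.21). At an unadjusted p under 0.05, 6 of them were higher, a share near the 19.5% of all genes. DESeq2 called 2 higher (15.8% of all genes) and limma-voom 0 (12.4%).

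Of the ribosomal RNAs that the members bind, mt-Rnr1 of the small subunit was at 1510, 1722 and 1431 CPM in controls and 2545, 2380 and 1458 CPM in SHMT2 HKO livers (log2 fold change 0.45, SE 0.24, adjusted p = 0.186). mt-Rnr2 of the large subunit was at 1445, 1874 and 1368 against 2482, 2023 and 1734 CPM (log2 fold change 0.41, SE 0.21, adjusted p = 0.176). Neither passed the test, and for both mouse 3 again lay within the control range. Over the 31 tested transcripts of the mitochondrial genome 17 rose (54.8%, against 12.5% of all genes) and 0 fell (16.5% of all genes), with a median of 1.01. Among 82 nuclear subunits of oxidative phosphorylation 35 rose (42.7%) and 1, Cox6b2, fell (1.22%), with a median of 0.58. For these the median gene of SHMT2 HKO mouse 3 was 0.12 log2 units above the control mean, against 0.77 and 0.74 in mice 1 and 2. The median of 16 genes of mitochondrial content was 0.41. Of these 8 rose (50%) and 0 fell, led by Hspe1 at 0.78, Hspd1 at 0.67 and Phb at 0.63. Cytosolic ribosomal proteins, the counterparts of the members outside mitochondria, had a median of -0.08. Of 80, 2 were higher (2.5%, Rpl36al and Rps27l) and 1 lower (1.25%, Rps12), both shares below those of all genes.

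**Figure D5:**
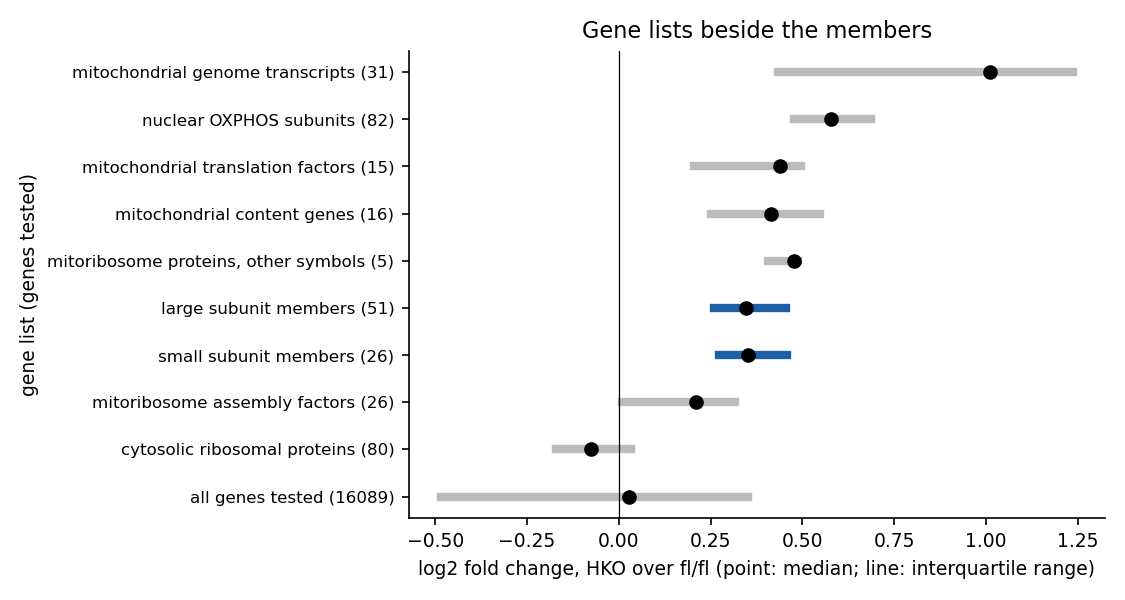
Log2 fold change, SHMT2 HKO over SHMT2 fl/fl (horizontal axis), of the members by subunit and of 7 other gene lists and all genes tested, as the median (point) and the interquartile range (line). Both subunits have a median of 0.35, between the assembly factors (0.21) and the translation factors (0.44), and cytosolic ribosomal proteins lie at -0.08.

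Transcription regulators of mitochondrial genes followed. Of 12, Tfb2m (log2 fold change 0.55, adjusted p = 0.0217) and Tfam (0.42, adjusted p = 0.0212), which transcribe or package mitochondrial DNA, rose and 0 fell. These 2 are 16.7% of the list, near the 12.5% of all genes that rose, where 16.5% of all genes fell. In this list, and in those of translation factors, content genes and mitochondrial transcripts, the count of genes that fell was also 0 at an unadjusted p under 0.05, with DESeq2 and with limma-voom. Over all genes the shares that fell were 21.8, 17.9 and 17.4% in these. Nrf1, whose motif is described above, was at 13.9, 16.0 and 15.1 CPM in controls and 14.0, 9.93 and 12.2 CPM in SHMT2 HKO livers (log2 fold change -0.31, SE 0.16, adjusted p = 0.187). Gabpa and Yy1 had log2 fold changes of 0.31 and 0.25 (adjusted p = 0.228 and 0.255).

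Markers of cell types are set beside all genes, of which 12.5% rose and 16.5% fell. The shares were 15.8 and 17.9% with DESeq2, 12.4 and 17.4% with limma-voom and 19.5 and 21.8% unadjusted. Markers of hepatocytes, which are rich in mitochondria, had a median log2 fold change of 0.62, with 2 of 8 higher (25%, Apoc3 and Ttr) and 0 lower, where DESeq2 and the unadjusted test both gave 5 and 1 and limma-voom 2 and 0. Their summed level was 50425 to 61701 CPM in controls and 62188 to 93476 CPM in SHMT2 HKO livers, and their median over mice 1, 2 and 3 was 0.82, 0.74 and 0.22 above the control mean, the same order of mice as for the members. Cholangiocyte markers fell in 6 of 6 (median -2.97), with sums of 956 to 1188 against 128 to 246 CPM. T cell markers fell in 5 of 6 (median -2.44, sums of 17.9 to 22.3 against 4.10 to 6.66 CPM). Of 8 markers of stellate cells and myofibroblasts 4 fell and 1 rose, of 7 macrophage markers 2 fell and 3 rose, and of 6 endothelial markers 2 rose. None of the markers in the lists above was at 0 counts in a library. Among 4 B cell, 3 neutrophil and 4 erythroid markers that were tested, 0 rose or fell, with medians of -0.85, 0.21 and 0.38. Unadjusted, 1 B cell marker was lower and 1 erythroid marker higher. DESeq2 called 1 erythroid marker higher, and limma-voom called 0 in these 3 lists. The part of these cell types in the differences of the members was not tested.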

How the data were processed

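Liver RNA of 6 mice was sequenced as read pairs. Per the labels and the methods, the authors trimmed reads with Trimmomatic 0.36, aligned them with STAR 2.5.2b to GRCm38 with ERCC sequences and took unique hits per gene (featureCounts of Subread 1.5.2 is named in the submitters' notes). These raw counts are what was deposited by the authors. Use of strand is not given in the sources used here.

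Symbols, positions and exon lengths came from GENCODE M21 (GRCm38), in which 259 entries were not found. Counts without the 92 ERCC entries were filtered with filterByExpr, scaled by TMM and tested by the two-sided quasi-likelihood F test of edgeR 4.0.16 (R 4.3.3, robust dispersions), with Benjamini-Hochberg adjustment over 16089 genes and a threshold of 0.05. The fit was checked on counts simulated with known fold changes. Composition of the libraries was otherwise equal there, so this check does not bear on the choice of scaling. DESeq2 1.42.0, limma-voom (limma 3.58.1), other scalings, filters, a GC and length correction, a replicate block and leaving out each mouse were alternatives. Each group has 3 samples, and since the labels do not say more, p-values measure the spread between these samples. Whether replicate numbers pair the mice is not stated in the labels, and the main fit treated the mice as unpaired.

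The members and lists were chosen with earlier results of these data known. Members named are the 5 with the largest change per subunit among those that passed, the 3 with the smallest change and a list of members with known roles. Of the other lists, genes that passed are named, up to 3 per direction.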

Additional observations from a re-analysis of the deposited data

How the results depend on the processing

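The count of members that rose, 12, was 24 with DESeq2, 11 with limma-voom, 5 with upper-quartile scaling, 35 with the GC and length correction, and 0 with library size alone or ERCC scaling, where 0 members were higher at an unadjusted p under 0.05 in either fit and 7 and 0 were lower. All 12 were among the 24 and the 35. With the replicate block it was 7 (8.68% of all genes), all of them among the 12. The labels do not say whether the numbers pair the mice. Deviations of same-numbered mice correlated at -0.046, 0.013 and -0.077, so no shared effect of the number was seen. Leaving out 1 mouse gave 0 to 54 members that rose. Members that fell were 0 in every fit but that with library size alone, where 2 did. Leaving out 1 mouse gave 0 throughout. Members without overlap, 32, were 3 with library size alone, 12 with upper-quartile scaling and 0 with ERCC scaling (6.0, 16.4 and 1.29% of all genes). Without 1 mouse there were 32 to 72, but fewer mice overlap less readily, and the share over all genes was not computed. The medians of the large and small subunits were -0.095 and -0.088 with library size alone and -0.45 and -0.44 with ERCC scaling. Without 1 mouse they were 0.26 to 0.47 and 0.26 to 0.48. Their difference moved by less than the spread between mice under all alternatives, from -0.021 to 0.019.

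Of 416 values of the 26 named members under the alternatives, 299 kept direction and side of the threshold, 45 lost the call, 25 gained it and 47 changed sign. Under ERCC scaling the log2 fold changes that changed sign were Mrpl10 -0.49, Mrpl11 -0.49, Mrpl12 -0.41, Mrpl15 -0.21, Mrpl16 -0.15, Mrpl3 -0.60, Mrpl34 -0.17, Mrpl41 -0.21, Mrpl44 -0.51, Mrpl45 -0.45, Mrpl49 -0.18, Mrpl58 -0.51, Mrps12 -0.42, Mrps16 -0.52, Mrps18a -0.23, Mrps18b -0.49, Mrps18c -0.27, Mrps2 -0.43, Mrps22 -0.34, Mrps23 -0.69, Mrps26 -0.75, Mrps34 -0.43, Mrps36 -0.27, Mrps5 -0.27, Mrps7 -0.20. Under library size alone they were Mrpl10 -0.17, Mrpl11 -0.14, Mrpl12 -0.068, Mrpl3 -0.31, Mrpl44 -0.18, Mrpl45 -0.12, Mrpl58 -0.15, Mrps12 -0.034, Mrps16 -0.13, Mrps18b -0.14, Mrps2 -0.11, Mrps23 -0.38, Mrps26 -0.39, Mrps34 -0.053. The SE was wider under ERCC scaling, for example 0.50 for Mrps18a (adjusted p = 0.736, edgeR) against 0.13 under TMM. With that scaling 0 members were higher or lower at an unadjusted p under 0.05, so these signs are uncertain. ERCC scaling and library size alone also move the median of all genes, by -0.72 and -0.42. With upper-quartile scaling Mrps23 was at -0.032 and Mrps26 at -0.034, and Mrps30 was at 0.063 with the GC and length correction. Without 1 mouse Mrps23 ranged from -0.081 to 0.13, Mrps26 from -0.092 to 0.15 and Mrps30 from -0.12 to 0.033, and at least 1 of these 3 members changed sign on leaving out SHMT2 fl/fl mouse 1 or 3 or any one SHMT2 HKO mouse.

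The cause of these changes was not tested. Members had at least 33 counts in every library, and each group has 3 mice.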

Other observations

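Members often start close to a gene on the other strand. Of the 78, 18 (23.1%) have a protein-coding gene that begins within 1000 bases in the opposite direction, against 9.40% of 14061 tested protein-coding genes. Of these 18 neighbours 13 had a log2 fold change above 0 (72.2%, against 51.9% of all genes). Of them 3 rose (16.7%, against 12.5%) and 1 fell (5.56%, against 16.5%). The median of the neighbours was 0.20, against 0.13 over 1228 neighbours of all such genes and 0.03 over all genes tested. The shares above 0, risen and fallen were not computed over those 1228 neighbours, so they stand beside all genes only. Pnpla7, a lysophospholipase beside Mrpl41, rose by 0.95 (SE 0.18, adjusted p = 0.0068, edgeR). Klc4 beside Mrpl2 had 0.45 and Apba3 beside Mrpl54 had 0.43, whereas Mrpl54 itself was at -0.10. Ncapd2, a condensin subunit beside Mrpl51, fell by 0.73 on the log2 scale (SE 0.14, adjusted p = 0.0079), while Mrpl51 was at 0.46 (adjusted p = 0.0703). These neighbours were named after their values were seen. A neighbour and its member thus had values of opposite sign in several pairs, among them Mrpl57 (0.48) with Ska3 (-0.51, adjusted p = 0.355).

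Across the 78 members the log2 fold change had a Spearman's rho of 0.08 with the GC content of the transcript, -0.09 with exon length and 0.23 with mean log2 CPM. Over all genes tested the values were -0.11, -0.11 and 0.33. These are descriptions across genes of the same libraries.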
